A study of Mus musculus with 30 samples.

Results

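The 30 genes followed here encode enzymes and regulators of cholesterol and fatty acid synthesis, measured by RNA sequencing in primary mouse microglia, the resident macrophages of the brain. They comprised 8 genes of the mevalonate pathway, 11 of the sterol pathway, 5 regulators of sterol synthesis and 6 of fatty acid synthesis, named by function and not by a measured value. They were taken from 25899 genes with a count, and all 30 were among the 14346 that passed the filter on low counts. The groups were KO microglia (genotype Lrrk2-/-) with α-synuclein fibrils (5 libraries), wild type with fibrils (4), KO with LPS (4), wild type with LPS (6), KO controls (6) and wild-type controls (5). All came from C57BL/6 mice at postnatal day 21. Lrrk2 encodes a large kinase linked to Parkinson's disease, α-synuclein is the protein that aggregates in that disease, and LPS is a bacterial lipopolysaccharide sensed by Toll-like receptor 4. The sources used here give no dose, treatment time or design of the Lrrk2 allele. Nor do they tell whether libraries of a group were grown from different animals, and the p-values measure only the spread between these libraries, which may be technical.

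Cells make cholesterol from acetyl-CoA through mevalonate, isoprenoid and squalene intermediates, and the last steps convert lanosterol to cholesterol. When the endoplasmic reticulum is poor in sterol, the escort protein SCAP carries the transcription factor SREBP2 (gene Srebf2) to the Golgi, where it is cut and released to switch on nearly all genes of the route. INSIG proteins hold SCAP back when sterol or oxysterol is plentiful, and Insig1 is itself an SREBP target. The brain makes its own cholesterol, and astrocytes and myelinating oligodendrocytes are its best known producers. Microglia take up cholesterol from myelin and debris and also make it.

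SREBP proteins act at promoters together with NF-Y and Sp1. The promoters of 5 genes are therefore shown: Insig1, Mvd and Hsd17b7, which lead the fibril comparisons below, Hmgcs1, which holds the sterol element, and Fads2, which went the other way in wild type. Each sequence is the 150 bases before the annotated start, 5′ to 3′, from RefSeq on GRCm38.p6. Capitals mark matches on either strand to the NF-Y box CCAAT, the Sp1 box GGGCGG, the E-box CACGTG and, in Hmgcs1, the short sterol element TCACNCCAC, and the printed matches do not overlap.
Insig1, chr5:28071262-28071411, plus strand: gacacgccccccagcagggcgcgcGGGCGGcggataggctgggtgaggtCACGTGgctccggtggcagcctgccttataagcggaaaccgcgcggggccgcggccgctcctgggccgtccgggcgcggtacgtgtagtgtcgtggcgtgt
Mvd, chr8:122443423-122443572, minus strand: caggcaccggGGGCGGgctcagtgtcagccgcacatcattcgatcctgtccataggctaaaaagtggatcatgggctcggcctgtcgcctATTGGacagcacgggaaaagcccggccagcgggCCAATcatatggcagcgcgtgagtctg
Hsd17b7, chr1:169969206-169969355, minus strand: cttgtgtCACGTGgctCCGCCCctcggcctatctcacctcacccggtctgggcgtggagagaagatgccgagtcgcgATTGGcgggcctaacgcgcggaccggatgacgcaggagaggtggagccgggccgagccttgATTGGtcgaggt
Hmgcs1, chr13:119690201-119690350, plus strand: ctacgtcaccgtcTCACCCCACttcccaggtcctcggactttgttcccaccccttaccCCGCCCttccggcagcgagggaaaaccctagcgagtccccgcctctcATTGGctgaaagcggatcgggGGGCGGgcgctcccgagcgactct
Fads2, chr19:10101504-10101653, minus strand: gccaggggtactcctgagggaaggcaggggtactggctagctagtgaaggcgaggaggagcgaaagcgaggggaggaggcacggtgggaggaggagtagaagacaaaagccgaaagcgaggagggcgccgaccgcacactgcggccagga
The stretch of Insig1 held the E-box and an Sp1 box, that of Mvd an Sp1 box and 2 NF-Y boxes, and that of Hsd17b7 all 3 of these kinds. The stretch of Fads2 held no match, but an Sp1 box lay further upstream, at -186 to -181. Genes not called with fibrils, such as Nsdhl and Ebp, held NF-Y and Sp1 boxes too. Whether motifs go with the direction of change was not tested.

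A longer RefSeq window around the start was matched for 25 of the 30 genes, and Fads1, Fdft1, Fdps, Sqle and Stard4 had no entry. The NF-Y box occurred in 20 of these 25 genes (80%), against 43.1% of the 10339 tested genes with a window. The Sp1 box also occurred in 20 of 25 (80%), against 67.8%. Counted over every window of a gene, the E-box occurred in Dhcr7, Hsd17b7, Insig1, Sc5d and Scap (20%, against 11.7%). The short sterol element, which lies within the full one, occurred in Hmgcs1 alone (4%, against 1.33%), and the full sterol regulatory element in 0 of 25 (against 0.0387%). The liver X receptor element occurred in 0 of 25 and in 0% of the tested genes. A match describes the letters of this window and does not show binding.

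**Figure D1:**
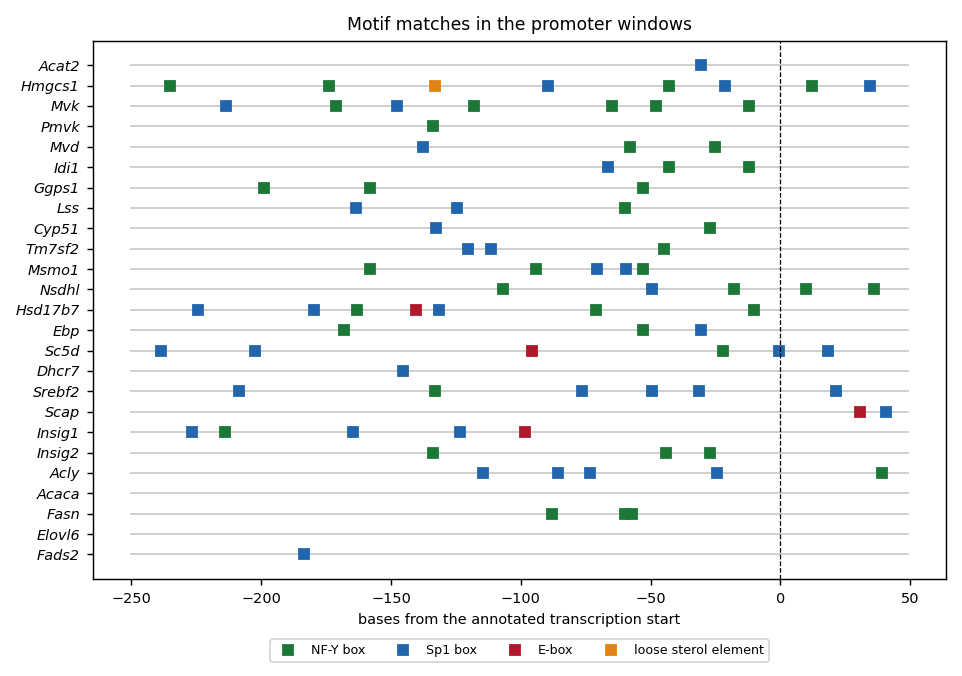
Motif matches (squares, coloured by motif) by distance in bases from the annotated transcription start (dashed line) in the first RefSeq window of the 25 genes with an entry, 1 row per gene in order of role. Green NF-Y boxes recur before the start in most mevalonate and sterol genes, the 1 orange sterol element lies in Hmgcs1, and Acaca and Elovl6 hold no match.

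Libraries held 8936310 to 35677005 gene counts (median 20432234), and the smallest count of any of the 30 genes in a library was 9. Levels are given as CPM, counts normalised to library size with TMM factors. Lrrk2 separated the genotypes, with 0.732 to 4.68 CPM over the KO libraries, against 6.87 to 16.7 CPM over the wild-type libraries. All 11 microglial markers were tested and summed to 4880 to 7987 CPM in every library. Among them P2ry12 and Tmem119 had low mean levels, of 2.08 and 6.43 CPM in KO with fibrils, against 9.94 and 8.88 CPM in KO controls. In wild type they stood at 2.69 and 6.51 CPM with fibrils, against 9.86 and 8.81 CPM in controls. Sall1 was low as well, at 3.81 CPM in KO controls and 2.53 CPM in wild-type controls. The markers did not move as one with fibrils (edgeR, adjusted p under 0.05). In KO P2ry12 and Cx3cr1 were called lower. In wild type P2ry12 and C1qa were called lower, and Csf1r (0.56 on the log2 scale) and Itgam (0.60) higher. Tmem119 was called in neither genotype. The 8 listed markers of border macrophages of the brain, 6 of them tested, summed to 1083 to 1844 CPM. Markers of other cells were uneven. The 12 oligodendrocyte markers summed to 45.4 to 664 CPM, 10 listed astrocyte markers (9 tested) to 16.6 to 325.5 CPM and 7 fibroblast markers to 0.216 to 131 CPM.

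The wild-type fibril libraries were all low in those markers, although the lowest wild-type LPS sums were as low. Astrocyte markers summed to 16.8 to 24.3 CPM there (median 23.2), against 24.5 to 220.0 CPM in wild-type controls (median 69.9), and fibroblast markers to 0.486 to 1.07 CPM, against 1.05 to 131 CPM. Of 12 oligodendrocyte markers 4, and of 10 listed astrocyte markers 1, were at 0 in all wild-type fibril libraries. In wild type with LPS these counts were 0 and 1. Astrocyte markers summed there to 16.6 to 286.6 CPM (median 58.3) and fibroblast markers to 0.216 to 95.9 CPM (median 45.3). With fibrils in wild type 7 of 9 astrocyte and 6 of 7 fibroblast markers fell, and in KO 0 of 9 and 0 of 7 were called. In KO astrocyte markers summed to 65.4 to 325.5 CPM with fibrils (median 99.1), against 48.7 to 268 CPM in controls (median 168). Oligodendrocyte markers summed to 58.5 to 251 CPM with fibrils in KO (median 66.2), against 65.5 to 664 CPM in controls (median 184), and to 48 to 54.9 CPM with fibrils in wild type (median 49.5), against 49.6 to 145 CPM in controls (median 60.2). The part of these cells in the results on synthesis genes was not tested, and in bulk RNA fewer cells of a type and less RNA per cell cannot be told apart.

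Per kilobase of transcript, the highest mean levels over all libraries were those of Insig1, at 65.7 CPM per kb, and Msmo1, a sterol C4 demethylase, at 59.8 CPM per kb, then Fdps, which makes farnesyl diphosphate (47.4), Acly, which supplies cytosolic acetyl-CoA (45.6), and Hmgcs1, the HMG-CoA synthase of the mevalonate route (36.5). The order differed by group: Msmo1 led in KO with fibrils (73.0, against 70.2 for Insig1), in KO controls (52.1, against 38.0) and in wild-type controls (58.2, against 47.4), and Insig1 led in wild type with fibrils (106.5, against 85.1 for Msmo1) and with LPS in both genotypes. The lowest were Fads2, the delta-6 desaturase of polyunsaturated fatty acids (1.77 CPM per kb), and Elovl6, an elongase of saturated chains (0.529). Fads1, the delta-5 desaturase of the same route, stood at 17.9 CPM per kb. Of the counts of Lss, the lanosterol synthase, 23.6% lay on a transcript annotated as a retained intron.

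These genes varied more between libraries of one group than most genes did. The median SD within groups was 0.66 log2 CPM over the 30 genes, against 0.29 over all tested genes, and 77.7% of tested genes had a smaller SD than that median. Fads2 varied most (1.42), then Idi1, the isopentenyl diphosphate isomerase (1.04), Sqle, squalene epoxidase (0.95), and Cyp51, the lanosterol demethylase (0.95). Steady genes were Ggps1, which makes geranylgeranyl diphosphate (0.14), Acly (0.16), Scap (0.18), Insig2 (0.21), the sterol isomerase gene Ebp (0.24) and Acaca, acetyl-CoA carboxylase (0.27).

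The spread was shared along the route: single libraries were high or low in many of the 30 genes at once. Among KO fibril libraries, replicate 1 was the highest in 19 genes and replicate 2 in 9, and replicate 4 was the lowest in 24. Those 3 libraries held these ranks in 17.8%, 18.2% and 17.6% of all tested genes. Among wild-type fibril libraries, replicate 2 was the highest in 24 genes (30.3% of all) and replicate 3 the lowest in 14 (25.9%). With LPS in KO, replicate 3 was the highest in 17 genes (29.8% of all) and replicate 2 the lowest in 19 (23.7%). With LPS in wild type, replicate 1 was the highest in 26 (26.2%) and replicate 2 the lowest in 24 (13.7%). In KO controls, replicate 4 was the highest in 14 (18.4%) and replicate 5 the lowest in 19 (13.6%). KO control replicate 4 was also the library with the fewest counts, 8936310. In wild-type controls, replicate 3 was the highest in 26 (26%) and replicate 6 the lowest in 20 (31.5%).

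**Figure D2:**
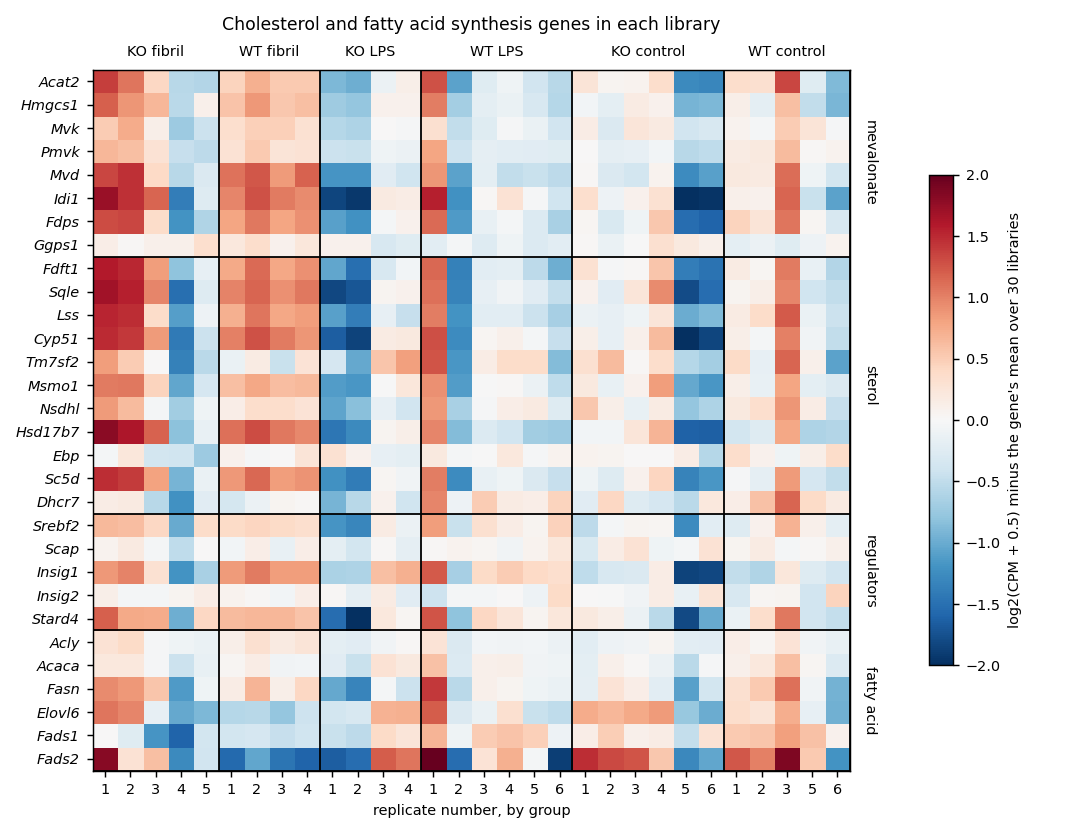
Each row is 1 gene and each column 1 library, coloured by log2 expression minus the gene's mean over the 30 libraries (red higher, blue lower), with rows grouped by role and columns by group. Whole columns turn red or blue within a group, as KO fibril replicates 1 and 4 do, while the 4 wild-type fibril columns look alike.

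Hmgcs1 (chr13:119690379-119708260, plus strand, mm10) shows the range. It stood at 249, 201, 171, 74.7 and 116 CPM in KO with fibrils, against 56.5, 98.9 and 121 CPM as the lowest, median and highest of KO controls. In wild type it stood at 161, 197, 158 and 164 CPM with fibrils and at 118, 94.1, 164, 76.9 and 57.4 CPM in controls. KO fibril libraries spread widely and wild-type fibril libraries lay close together. Over the 30 genes the median SD was 0.89 log2 CPM in KO with fibrils and 0.13 in wild type with fibrils, and it was 0.53 to 0.67 in the other groups. Over all tested genes it was 0.33 in KO and 0.12 in wild type with fibrils.

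Within groups, the lowest and the highest library by the 30 genes were compared with those by each marker list. The full order of the libraries was not compared. With only 4 to 6 libraries in a group some extremes are shared by chance, and no test was made. By mean log2 CPM, the library lowest in the 30 genes was also the lowest in astrocyte markers in 4 of 6 groups, and the highest was shared in 3 of 6. The counts were 4 and 3 for fibroblast, 3 and 3 for oligodendrocyte, and 0 and 1 for microglial markers. In wild-type fibril libraries the 30 genes averaged 5.15 to 5.37 log2 CPM, with astrocyte markers at -0.40 to 0.58 log2 CPM. In KO fibril libraries the 30 genes averaged 3.94 to 5.78 log2 CPM, with astrocyte markers at 2.17 to 4.68 log2 CPM.

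**Figure D3:**
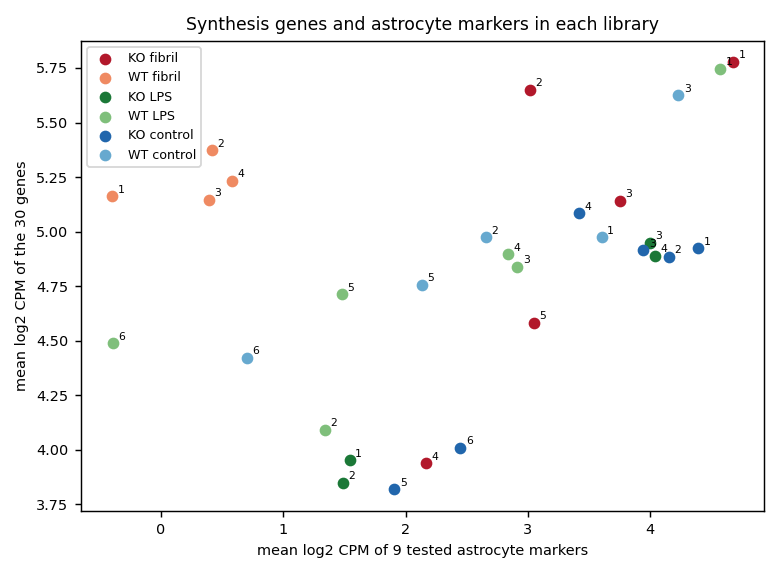
Each point is 1 library, numbered by replicate and coloured by group, with the mean log2 CPM of the 9 tested astrocyte markers on the x axis and of the 30 synthesis genes on the y axis. The wild-type fibril libraries lie at the left between 5.15 and 5.37 log2 CPM on the y axis, and the KO fibril libraries run from 3.94 to 5.78 log2 CPM.

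With fibrils in KO, Mvd of the mevalonate pathway rose and the desaturase gene Fads1 fell, both against KO controls. These were the only calls among the 30 genes at an adjusted p under 0.05 (edgeR quasi-likelihood test, Benjamini-Hochberg over all tested genes), where 23.8% of all tested genes were called, 12.2% higher and 11.6% lower. The median log2 fold change of the 30 genes was 0.53, against -0.04 for all tested genes. By role it was 0.79 for the mevalonate genes, positive in 8 of 8, and 0.99 for the sterol genes, positive in 8 of 11. It was 0.58 for the regulators and -0.02 for the fatty acid genes. In 12 genes the unadjusted p was under 0.05. The groups overlapped in all 30 genes, where 4.68% of tested genes were higher and 3.41% lower without overlap.

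Mvd (chr8:122433601-122443422, minus strand), the decarboxylase that yields isopentenyl diphosphate, stood at 31.4, 34.3, 16.2, 8.05 and 9.78 CPM in KO with fibrils, against 4.79, 9.54 and 12.7 CPM as the lowest, median and highest of KO controls. Fibril replicates 1 to 3 were above all controls and replicates 4 and 5 lay among them. The log2 fold change of 1.15 ± 0.37 (adjusted p = 0.0244), given as all differences below with its SE, was not called without fibril replicate 1 (0.0835), fibril replicate 2 (0.101) or control replicate 5 (0.06). Fads1 (chr19:10182888-10196877, plus strand) stood at 58.1, 49.1, 25.3, 18.8 and 44.9 CPM with fibrils, against 41.6, 64.0 and 81.9 CPM as the lowest, median and highest of controls. Replicates 3 and 4 were below every control and the others overlapped. It fell by 0.71 ± 0.23 on the log2 scale (adjusted p = 0.0259), and the call ended without fibril replicate 3 (0.09), fibril replicate 4 (0.079) or control replicate 2 (0.0668).

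Several other genes had positive differences that missed the threshold. Hsd17b7 (chr1:169949535-169969241, minus strand), a 3-keto sterol reductase, stood at 74.7, 65.9, 48.4, 11.7 and 19.1 CPM in KO with fibrils, against 6.46, 20.4 and 34.1 CPM as the lowest, median and highest of controls. Its difference was 1.24 ± 0.46 (adjusted p = 0.0531), and that of Hmgcs1 was 0.83 ± 0.31 (adjusted p = 0.0553). Insig1 (chr5:28071363-28078662, plus strand) stood at 282, 309, 191, 67.4 and 97.8 CPM with fibrils, against 42.2, 116 and 171 CPM in the same order (0.89 ± 0.38, adjusted p = 0.0919). In these 3 genes fibril replicates 1 to 3 were above all controls and replicate 4 lay among them. Sc5d, a sterol desaturase, differed by 1.05 ± 0.41 and Lss by 1.02 ± 0.40.

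The count of calls in KO rested on single libraries. Without fibril replicate 4, 10 genes rose and 0 fell, and without fibril replicate 5 the counts were 7 and 1. They were 6 and 1 without control replicate 4. Without wild-type LPS replicate 1 they were 5 and 1, and without wild-type control replicate 3 they were 3 and 1. Both wild-type libraries lie outside the compared groups and enter only through the shared filter, scaling and spread. With the mean of astrocyte, fibroblast and oligodendrocyte markers as a covariate 17 rose and 1 fell, and DESeq2 called 5 higher and 1 lower. Library size as the only scaling gave 0 and 1, and a fit of only these groups called none. Refits without 1 library called 2668 to 3821 of all tested genes. Totals for the other settings are not set beside these counts, so no shift is shown to be particular to the 30 genes.

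With fibrils in wild type, Insig1 and Ggps1 rose and the desaturase genes Fads1 and Fads2 fell against wild-type controls. In all tested genes 29.3% were called, 13.9% higher and 15.5% lower. The median of the 30 genes was 0.25, against -0.05 for all tested genes, and 7 genes had an unadjusted p under 0.05. By role the median was 0.43 for the mevalonate genes, positive in 8 of 8, and 0.55 for the sterol genes, positive in 7 of 11. It was 0.26 for the regulators and -0.51 for the fatty acid genes. In 3 genes all fibril libraries were higher than all controls and in 2 all were lower, against 16.4% and 13.4% of tested genes.

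Insig1 stood at 279, 318, 276 and 275 CPM with fibrils in wild type, against 109, 101, 181, 129 and 118 CPM in controls. Every fibril library was above every control. The difference of 1.17 ± 0.42 (adjusted p = 0.0369) missed the threshold when any fibril library, or any control but replicate 3, was left out (0.0569 to 0.0817). With library size as the only scaling it was 0.96 (adjusted p = 0.105). Insig1 was not called in 3 of 8 other settings, among them a fit with replicate number as a block.

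Ggps1 (chr13:14050659-14063488, minus strand) leads isoprenoids away from sterols to protein prenylation. It stood at 27.0, 30.01, 24.9 and 27.4 CPM with fibrils, against 20.3, 21.4, 19.7, 21.7 and 24.5 CPM in wild-type controls, again with every fibril library above every control. The difference was small, at 0.35 ± 0.10 (adjusted p = 0.00906), and stayed called without any single library. Scaling by library size alone, which moved the median of all genes by -0.20, left it at 0.15 (adjusted p = 0.188). With the marker covariate it was 0.20 (adjusted p = 0.195).

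Fads1 stood at 44.8, 45.9, 42.2 and 44.2 CPM with fibrils, against 83.7, 85.9, 103, 87.0 and 61.5 CPM in wild-type controls, so that all fibril libraries were below all controls. The difference was -0.93 ± 0.26 (adjusted p = 0.00864), and no single library ended the call. Fads2 (chr19:10062765-10101746, minus strand) stood at 0.935, 1.55, 1.03 and 0.898 CPM with fibrils, against 9.55, 7.96, 15.0, 5.61 and 1.34 CPM in controls. The groups met through control replicate 6, the control lowest in astrocyte markers, and the difference was -2.81 ± 0.95 (adjusted p = 0.027). Leaving out control replicate 3 or any fibril library ended the Fads2 call (0.0524 to 0.0687). With the marker covariate Fads2 turned to 0.26 (adjusted p = 0.77), and Fads1 stood at -0.39 (adjusted p = 0.273).

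Hsd17b7 had the largest positive value in wild type, with 45.6, 52.6, 44.2 and 41.5 CPM with fibrils, against 16.2, 17.5, 36.3, 13.6 and 13.9 CPM in controls. Every fibril library was higher, with control replicate 3 close below, and the difference was 1.24 ± 0.51 (adjusted p = 0.067). Dhcr7 (chr7:143823145-143848410, plus strand), the last reductase of the route, stood at 7.22, 8.54, 9.66 and 9.41 CPM with fibrils, against 10.2, 14.1, 21.4, 12.3 and 10.6 CPM in controls. All its fibril libraries were lower, and the difference was -0.66 ± 0.28 (adjusted p = 0.0766). Hmgcs1 differed by 0.74 ± 0.35 (adjusted p = 0.11).

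Without control replicate 3, the control highest in most of the genes, 5 genes rose and 1 fell in wild type, and without any single fibril library 1 rose and 1 fell. With library size as the only scaling 0 rose and 3 fell, Dhcr7 (-0.87, adjusted p = 0.0339) joining the desaturases. In a fit of only these groups 7 rose and 3 fell. With the marker covariate 20 rose and 0 fell, from Acly at 0.37 to Idi1 at 2.58. The wild-type fibril libraries lay at -1.47 to -1.04 log2 CPM in that covariate, against -0.97 to 2.82 log2 CPM in controls, so that these groups did not overlap in it. Refits without 1 library called 2967 to 4560 of all tested genes. Totals for the other settings are not set beside these counts, so the shifts are not shown to be particular to the 30 genes.

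**Figure D4:**
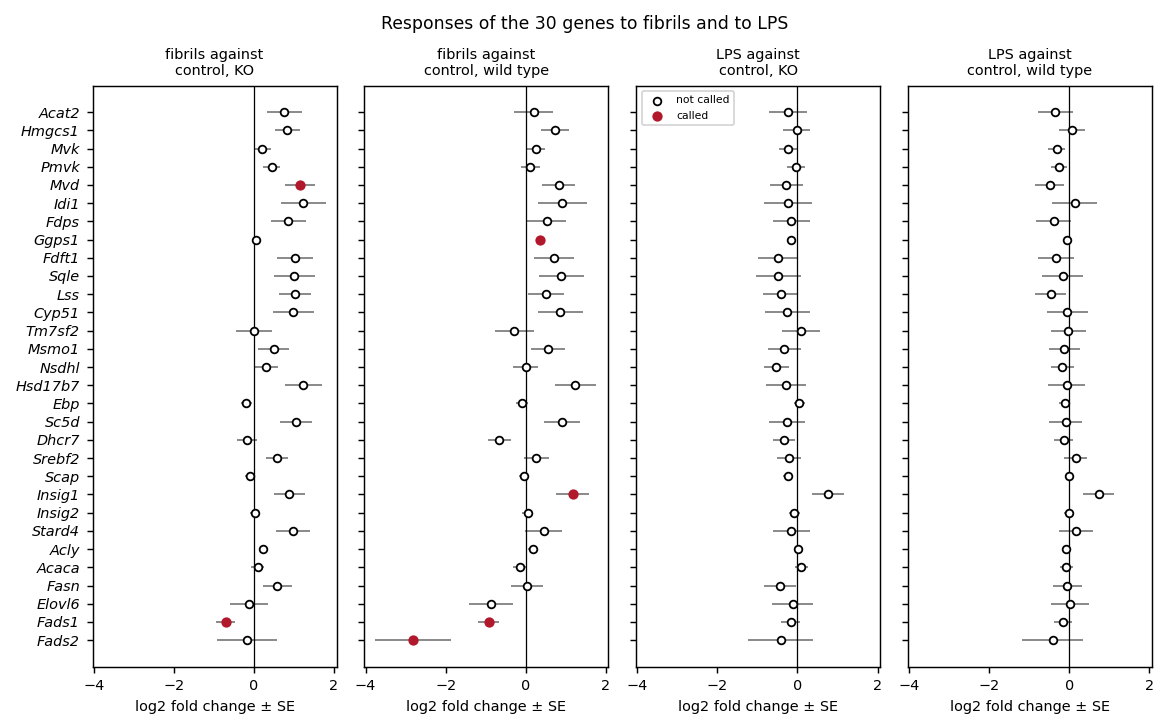
Log2 fold change against control (x axis, bars are SE) of the 30 genes in pathway order, in panels for fibrils in KO, fibrils in wild type, LPS in KO and LPS in wild type, with genes called at an adjusted p under 0.05 in red. Fibril points of the mevalonate and sterol genes lie mostly right of 0, with medians of 0.79 and 0.99 in KO, and in the LPS panels no gene is red.

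The other enzymes were not called with fibrils in either genotype. In the mevalonate pathway these were Acat2, which joins acetyl-CoA units, the kinase genes Mvk and Pmvk, Idi1 and Fdps, at 0.21 to 1.23 in KO, and in wild type at 0.11 to 0.92. In the sterol pathway Fdft1 (squalene synthase), Sqle, Lss, Cyp51, Msmo1 and Sc5d lay at 0.49 to 1.05 in KO, and in wild type at 0.51 to 0.90. Tm7sf2 (a sterol reductase), Nsdhl (a sterol C4 decarboxylase), Ebp and Dhcr7 lay lower, at -0.20 to 0.30 in KO, and in wild type at -0.66 to -0.0003. Elovl6 and Acaca lay at -0.13 ± 0.48 and 0.10 ± 0.16 in KO and at -0.87 ± 0.54 and -0.15 ± 0.18 in wild type.

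The regulators other than Insig1 had no call with fibrils. Srebf2 (chr15:82147181-82205379, plus strand) stood at 102, 99.5, 87.2, 32.0 and 83.6 CPM in KO with fibrils, against 26.9, 59.7 and 67.7 CPM as the lowest, median and highest of KO controls (0.58 ± 0.28, adjusted p = 0.151). In wild type it stood at 84.8, 88.1, 84.6 and 82.1 CPM with fibrils, against 54.1, 68.7, 106, 69.5 and 56.6 CPM in controls (0.26 ± 0.31, adjusted p = 0.568). KO fibril replicate 4 was within the control range and the other KO fibril libraries above it, while in wild type control replicate 3 was the highest library. Scap averaged 32.6 ± 5.53 CPM with fibrils and 35.2 ± 5.61 CPM in controls in KO (SD, n = 5 and 6), and the 95% interval of the log2 difference was -0.33 to 0.11, and in wild type it was -0.28 to 0.20. Insig2, the relative of Insig1, averaged 18.3 ± 1.07 CPM with fibrils and 18.1 ± 1.89 CPM in controls in KO, with an interval of -0.24 to 0.28, and -0.24 to 0.34 in wild type. Stard4, a cholesterol carrier protein, differed by 0.97 ± 0.42 (adjusted p = 0.096) in KO and 0.45 ± 0.46 (adjusted p = 0.492) in wild type.

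In the fatty acid branch Acly (chr11:100476353-100528000, minus strand) stood at 239, 255, 193, 185 and 179 CPM in KO with fibrils, against 168, 176 and 204 CPM as the lowest, median and highest of KO controls (0.23 ± 0.10, adjusted p = 0.0955). In wild type it stood at 213, 244, 221 and 233 CPM with fibrils, against 213, 200.4, 235, 186 and 176 CPM in controls (0.17 ± 0.11, adjusted p = 0.244). The groups overlapped in both. Fasn, fatty acid synthase, averaged 88.0 ± 41.3 CPM with fibrils and 58.6 ± 17.2 CPM in controls in KO (SD, n = 5 and 6; 0.59 ± 0.36), and 85.6 ± 16.3 CPM with fibrils and 83.9 ± 40.4 CPM in controls in wild type (SD, n = 4 and 5; 0.03 ± 0.40). Neither was called.

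**Figure D5:**
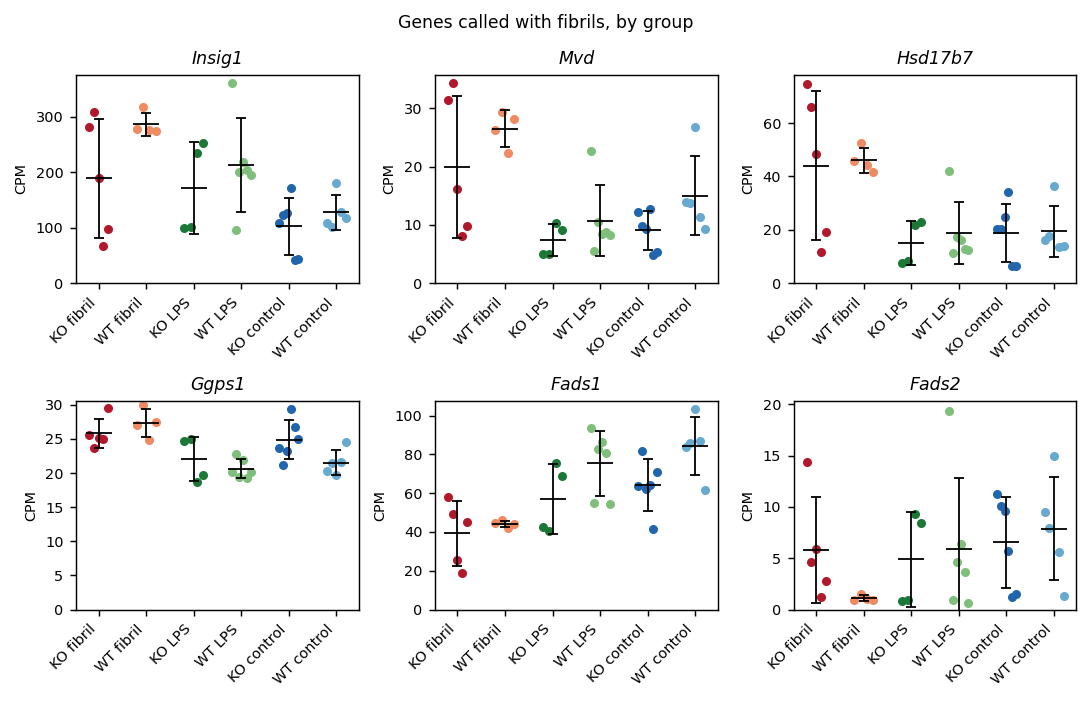
CPM on a linear y axis of 6 genes called in at least 1 fibril comparison, 1 point per library, with the mean and SD of each group as the bar and whisker (whiskers stop at 0). In wild type the fibril libraries of Insig1, Ggps1 and Hsd17b7 lie above all controls and those of Fads1 below them, while KO fibril libraries overlap their controls in all 6 genes.

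LPS left all 30 genes uncalled in both genotypes (edgeR). In KO 13.7% of tested genes were called, 6.34% higher and 7.35% lower, and in wild type 15.1%, 7.1% higher and 8.03% lower. At an unadjusted p under 0.05 there was 1 of the 30 genes in KO and 0 in wild type, and DESeq2 called 0 in both. The medians were -0.23 in KO and -0.09 in wild type, against -0.04 and -0.02 for all tested genes, and 25 and 24 of 30 values were negative. No gene's groups were without overlap, where 4.84% of tested genes were higher and 5.33% lower in that way in KO, and 5.51% and 6.03% in wild type.

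Insig1 had the largest value with LPS in both genotypes. In KO it stood at 99.6, 101, 235 and 253 CPM, against 42.2, 116 and 171 CPM as the lowest, median and highest of controls, a difference of 0.75 ± 0.40 (95% interval -0.07 to 1.57, adjusted p = 0.251). In wild type the lowest, median and highest were 96.8, 202 and 361 CPM with LPS, against 109, 101, 181, 129 and 118 CPM in controls (0.74 ± 0.38, -0.05 to 1.52, adjusted p = 0.252). The groups overlapped in both. Every other gene lay at or below 0.10 in KO and 0.16 in wild type. Intervals were wide for variable enzymes such as Idi1 (-1.47 to 1.01 in KO, -1.01 to 1.29 in wild type) and narrow for Acly (-0.21 to 0.22 in KO, -0.29 to 0.11 in wild type). The gene at an unadjusted p under 0.05 was Scap in KO (-0.24 ± 0.11, adjusted p = 0.182). Scaling by library size alone shifted all genes by a median of -0.17 in KO and of -0.21 in wild type, and then Ggps1 and Scap were called lower in KO and Ggps1 in wild type. Insig1 was called higher in KO under the marker covariate (1.07, adjusted p = 0.0405).

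Against LPS, fibrils gave higher levels of 5 mevalonate and sterol genes in KO and no lower ones, where 26.6% of tested genes were called, 13.8% higher and 12.8% lower. They were Mvd (1.43 ± 0.43, adjusted p = 0.0138), Lss (1.44 ± 0.46, adjusted p = 0.0202), Fdft1 (1.51 ± 0.52, adjusted p = 0.0321), Hsd17b7 (1.53 ± 0.53, adjusted p = 0.0337) and Sc5d (1.31 ± 0.47, adjusted p = 0.0376). The median of the 30 genes was 0.81, against 0.02 for all tested genes, and 1.24 over the sterol genes. The groups overlapped in all 30, where 10.1% of tested genes were higher and 10.6% lower without overlap.

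Lss stood at 108, 105, 48.4, 17.1 and 34.9 CPM with fibrils, against 17.4, 14.05, 33.3 and 27.0 CPM with LPS in KO. Mvd stood at 31.4, 34.3, 16.2, 8.05 and 9.78 CPM with fibrils, against 5.06, 5.10, 10.3 and 9.05 CPM with LPS. Fdft1 stood at 56.0, 53.2, 33.3, 10.4 and 16.4 CPM with fibrils, against 8.69, 6.18, 14.7 and 17.7 CPM with LPS. In these genes fibril replicates 1 to 3 were above every LPS library, and fibril replicate 4 lay within the LPS range. Hsd17b7 stood at 74.7, 65.9, 48.4, 11.7 and 19.1 CPM with fibrils, against 7.39, 8.46, 21.9 and 22.8 CPM with LPS. Sc5d stood at 105, 99.8, 66.1, 19.4 and 34.2 CPM with fibrils, against 15.9, 13.9, 38.5 and 35.6 CPM with LPS, with the same libraries high.

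These calls rested on few libraries. Without LPS replicate 1 there were 0 and without LPS replicate 2 only 1, while without LPS replicate 3 there were 9 rises. Without fibril replicate 1 or 2 there were 1 rise and 1 fall each, without fibril replicate 3 there were 3 rises, and without fibril replicate 4 there were 13. Without wild-type LPS replicate 1 there were 8. A fit of only these groups called 0, library-size scaling 6 higher, and DESeq2 9 higher. Leaving out 7 libraries that an earlier analysis listed as standing apart gave 14 rises. Refits without 1 library called 2990 to 4065 of all tested genes. Totals for the other settings are not set beside these counts, so the shifts are not shown to be particular to the 30 genes.

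In wild type 4 genes rose and 2 fell with fibrils against LPS, where 37.1% of tested genes were called, 18.2% higher and 18.9% lower. Ggps1 stood at 27.0, 30.01, 24.9 and 27.4 CPM with fibrils, against 19.3, 20.2 and 22.7 CPM as the lowest, median and highest with LPS (0.41 ± 0.09, adjusted p = 0.00134). It was the 1 gene with all fibril libraries higher, a pattern of 19.3% of tested genes. Mvd stood at 26.3, 29.4, 22.3 and 28.2 CPM with fibrils, against 5.51, 8.61 and 22.7 CPM in the same order with LPS (1.31 ± 0.39, adjusted p = 0.01), and overlapped through LPS replicate 1. Hsd17b7 (1.30 ± 0.49, adjusted p = 0.037) and Acly (0.26 ± 0.10, adjusted p = 0.0497) also rose. The Hsd17b7 call ended without any fibril library or any of LPS replicates 2 to 6 (0.0555 to 0.0824). The Acly call ended in 6 of 8 other settings and in 21 of 30 refits that left out 1 library, among them those without any wild-type fibril library.

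Fads1 fell by 0.77 ± 0.25 on the log2 scale (adjusted p = 0.0175) against LPS in wild type. All its fibril libraries were below the lowest LPS library, at 54.1 CPM, a pattern of 16.2% of tested genes. Fads2 stood at 0.935, 1.55, 1.03 and 0.898 CPM with fibrils, against 0.648, 4.13 and 19.3 CPM as the lowest, median and highest with LPS (-2.39 ± 0.92, adjusted p = 0.0419), and at -1.54 (adjusted p = 0.169) without LPS replicate 1. With the marker covariate it turned to 0.77 (adjusted p = 0.234). Without LPS replicate 1, 12 genes rose and 1 fell, and without LPS replicate 4 or any fibril library 2 rose and 1 fell. Without the 7 libraries 12 rose and 1 fell, and with library-size scaling 2 rose and 2 fell. With only these groups in the fit 7 rose and 3 fell, and with the marker covariate 21 rose. Refits without 1 library called 4151 to 5607 of all tested genes. Totals for the other settings are not set beside these counts, so the shifts are not shown to be particular to the 30 genes.

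KO and wild type were compared within each treatment, and none of the 30 genes was called (edgeR). Called shares of all tested genes were 0.314% in controls (0.153% higher, 0.16% lower), 1.69% with LPS (0.453% higher, 1.24% lower) and 8.85% with fibrils (5.18% higher, 3.67% lower). Unadjusted p-values under 0.05 were found for 3, 5 and 2 of the 30 genes in that order. DESeq2 called 0 in controls, Dhcr7 lower with LPS (-0.83, adjusted p = 0.0486) and Fads2 higher with fibrils (2.44, adjusted p = 0.0268). The median differences were -0.32 (controls), -0.39 (LPS) and -0.10 (fibrils), against 0.005, 0.02 and 0.01 for all tested genes, and 26, 28 and 24 of 30 values were negative.

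Dhcr7 had the smallest p of the 30 genes in controls and with LPS. In controls its lowest, median and highest were 6.26, 7.80 and 12.6 CPM in KO, against 10.2, 14.1, 21.4, 12.3 and 10.6 CPM in wild type (-0.64 ± 0.25, adjusted p = 0.516). With LPS it stood at 4.67, 6.18, 9.91 and 6.95 CPM in KO, against 8.61, 11.7 and 18.8 CPM as the lowest, median and highest in wild type (-0.84 ± 0.27, adjusted p = 0.105). KO libraries were mostly the lower ones and overlapped with wild type in both. Pmvk averaged 16.4 ± 2.65 CPM in KO and 22.8 ± 4.22 CPM in wild-type controls (SD, n = 6 and 5), with every KO control below every wild-type control (-0.47 ± 0.21, adjusted p = 0.644). That pattern held for 0.362% of tested genes, as did the opposite one. With LPS 3.08% of tested genes were higher and 5.21% lower without overlap, with fibrils 7.44% and 7.87%, and none of the 30 was among them.

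Srebf2 with LPS stood at 28.5, 25.9, 72.9 and 59.6 CPM in KO, against 47.9, 76.8 and 116 CPM as the lowest, median and highest in wild type (-0.76 ± 0.31, adjusted p = 0.204). KO replicates 1 and 2, the lowest of their group in the mean of the 30 genes, were below every wild-type library. Fasn with LPS differed by -0.90 ± 0.40 (adjusted p = 0.241), with 32.3, 26.5, 64.9 and 49.5 CPM in KO, against 45.4, 65.9 and 178 CPM in wild type in the same order. With fibrils Fads2 averaged 5.80 ± 5.14 CPM in KO and 1.11 ± 0.305 CPM in wild type (SD, n = 5 and 4; 2.37 ± 0.93, adjusted p = 0.106). Beside it, 6 of 9 astrocyte markers and 6 of 7 fibroblast markers were higher in KO than in wild type with fibrils.

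The responses themselves were compared between genotypes with an interaction term. For LPS 0 of the 30 genes and 0% of tested genes were called (edgeR), with 0 of the 30 and 603 of all at an unadjusted p under 0.05 and 0 of the 30 by DESeq2. For fibrils 0 of the 30 and 0% were called, with 2 of the 30 and 1667 of all at an unadjusted p under 0.05 while DESeq2 called 0 of the 30 and 67 of all. Those at an unadjusted p under 0.05 were Fads2 (2.63 ± 1.18, KO minus wild type, 95% interval 0.21 to 5.06) and Ggps1 (-0.29 ± 0.13, -0.56 to -0.02). For Mvd and Insig1, called in one genotype only, the differences of responses were 0.33 ± 0.55 (-0.81 to 1.46) and -0.28 ± 0.56 (-1.44 to 0.88).

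Genes around the route were counted from lists drawn up by function, with changes on the log2 scale. Of 16 genes of SREBP processing at the endoplasmic reticulum, 7 rose and 0 fell with fibrils in KO, and 9 rose and 0 fell in wild type. Called higher over all tested genes were 12.2% in KO and 13.9% in wild type. Rnf145, a ubiquitin ligase that acts on SCAP, rose by 0.90 ± 0.17 (adjusted p = 0.000231) in KO, at 101 against 53.9 mean CPM, and by 0.80 ± 0.18 (adjusted p = 0.00211) in wild type, at 104 against 59.7 mean CPM. Ubxn8, a membrane protein of endoplasmic reticulum protein degradation, rose by 0.31 ± 0.09 in KO and 0.76 ± 0.10 in wild type. With fibrils it was lower in KO than in wild type (-0.33 ± 0.10, adjusted p = 0.0359). Sar1a, a GTPase of the vesicles that leave the endoplasmic reticulum, rose with fibrils (0.19 ± 0.07 in KO, 0.44 ± 0.07 in wild type) and with LPS (0.30 ± 0.07 in KO, 0.28 ± 0.07 in wild type).

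The list's medians with fibrils were 0.16 in KO and 0.23 in wild type, against -0.04 and -0.05 for all tested genes. With library size as the only scaling they were 0.06 and 0.04, with 2 rises in KO and 4 in wild type. In KO the count was 4 without fibril replicate 3 and 2 in a fit of only the compared groups.

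Among 7 tested genes of oxysterol metabolism, Ch25h, which makes an oxysterol that blocks SREBP processing, rose with both stimuli. With LPS it rose by 2.02 ± 0.33 (adjusted p = 5.59e-05) in KO, at 68.0 against 16.6 mean CPM, and by 2.96 ± 0.34 (adjusted p = 2.20e-07) in wild type, at 107 against 13.8 mean CPM. With fibrils it rose by 1.98 ± 0.32 in KO, at 66.1 against 16.6 mean CPM, and by 1.72 ± 0.35 in wild type, at 45.1 against 13.8 mean CPM. Cyp27a1, the mitochondrial sterol hydroxylase, fell with fibrils by 1.96 ± 0.24 in KO and 1.71 ± 0.26 in wild type. Gpr183, a receptor for oxysterols, fell by 1.77 ± 0.30 in KO and 1.36 ± 0.32 in wild type. Neither was called with LPS. Cyp46a1, the neuronal cholesterol hydroxylase, was listed at 0 in all wild-type fibril libraries and averaged 0.168 CPM in wild-type controls. With fibrils it averaged 0.308 CPM in KO and 0 CPM in wild type, and Cyp7b1, another oxysterol hydroxylase, 0.692 CPM in KO and 0.0263 CPM in wild type, and both were called higher in KO.

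Of 10 genes of sterol efflux, Nr1h3, which encodes liver X receptor α, rose with fibrils by 1.41 ± 0.18 (adjusted p = 2.22e-06) in KO, at 41.7 against 15.7 mean CPM, and by 1.60 ± 0.20 (adjusted p = 2.05e-06) in wild type, at 67.1 against 22.1 mean CPM. The transporter gene Abca2 fell (-0.63 ± 0.20 in KO, -0.60 ± 0.22 in wild type), and the other 8 were not called. The 20% called in each genotype stand against 23.8% of all tested genes in KO and 29.3% in wild type. With LPS in KO, Lpcat3 (0.33 ± 0.07), a phospholipid remodelling enzyme, the sterol exporter gene Abca1 (0.77 ± 0.21) and Nr1h3 (0.60 ± 0.19) rose. With LPS in wild type 0 were called. Of all tested genes 6.34% were called higher with LPS in KO and 7.1% in wild type. For Lpcat3, Abca1 and Nr1h3 the difference in LPS response between genotypes was not called (edgeR interaction term, adjusted p = 0.9925 for each). Lpcat3 averaged 46.8 CPM with LPS and 37.3 CPM in controls in KO, and 45.9 CPM with LPS in wild type. Lpcat3 was lower in KO than in wild type in controls (-0.42 ± 0.07, adjusted p = 0.00134) and with fibrils (-0.39 ± 0.08, adjusted p = 0.00414). Nr1h3 was lower in KO with fibrils (-0.69 ± 0.19, adjusted p = 0.0287).

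Of 15 genes of sterol uptake and storage, 1 rose and 3 fell with fibrils in KO, and 0 rose and 2 fell in wild type. Those shares, 26.7% in KO and 13.3% in wild type, stand against 23.8% and 29.3% of all tested genes, so they are near or below the background. Lrp1, a lipoprotein receptor, fell in both (-0.74 ± 0.25 in KO, -0.91 ± 0.28 in wild type). The sterol transfer protein gene Gramd1a rose in KO (1.39 ± 0.26, adjusted p = 0.000218) and Gramd1b fell in wild type (-1.21 ± 0.40, adjusted p = 0.0227). Nceh1, which hydrolyses cholesteryl esters, and Scp2, a lipid carrier, fell in KO (-0.60 ± 0.20 and -0.28 ± 0.10). With fibrils the lysosomal lipase gene Lipa was lower in KO than in wild type (-0.82 ± 0.22, adjusted p = 0.0219, at 1419 against 2508 mean CPM), as was the lysosomal cholesterol carrier gene Npc2 (-0.65 ± 0.17, adjusted p = 0.0191). Lrp1 was lower in KO with LPS (-1.09 ± 0.27, adjusted p = 0.0391).

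Of 24 partner genes of fatty acid metabolism, 6 rose and 4 fell with fibrils in KO, and 7 rose and 1 fell in wild type. Called were 41.7% of them in KO and 33.3% in wild type, against 23.8% and 29.3% of all tested genes. Acsl5, an acyl-CoA synthetase, rose by 1.03 ± 0.09 (adjusted p = 1.68e-08) in KO, at 319 against 156 mean CPM, and by 1.14 ± 0.10 (adjusted p = 2.35e-08) in wild type, at 357 against 162 mean CPM. Its relatives Acsl1 (1.14 ± 0.12 in KO, 1.15 ± 0.13 in wild type) and Acsl4 (0.66 ± 0.10 in KO, 0.48 ± 0.11 in wild type) rose as well, as did the malic enzyme gene Me1 (0.73 ± 0.17 in KO, 1.10 ± 0.19 in wild type). The falls in KO were Lpin1, a phosphatidate phosphatase (-1.45 ± 0.28), Acaa2, a thiolase (-0.85 ± 0.19), Cpt1a, which passes fatty acids to mitochondria (-0.84 ± 0.23), and Elovl5, an elongase (-0.35 ± 0.12). The fall in wild type was Fads3 (-0.85 ± 0.31), and the count of falls there was 0 without wild-type control replicate 1, 5 or 6 or any 1 of the wild-type fibril libraries, 2 without KO control replicate 2 or 4 or KO fibril replicate 5, and 3 without KO LPS replicate 3. For none of the 24 was the difference in fibril response between genotypes called. Library-size scaling gave 6 rises and 4 falls in KO and 4 rises and 6 falls in wild type.

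With LPS, 4 of these genes rose and 1 fell in KO, and 2 rose and 2 fell in wild type, which is 20.8% and 16.7% of them, against 13.7% and 15.1% of all tested genes. Acsl1 rose by 0.70 ± 0.12 in KO and 0.69 ± 0.12 in wild type, and Gpam, the acyltransferase that starts glycerolipid synthesis, fell by 0.36 ± 0.12 in KO and 0.42 ± 0.11 in wild type. With fibrils Acss2, acetyl-CoA synthetase, was lower in KO than in wild type (-1.32 ± 0.22, adjusted p = 0.00125, at 9.13 against 22.8 mean CPM), as were Lpin1 (-1.41 ± 0.30, adjusted p = 0.00775) and Mid1ip1 (-0.43 ± 0.14, adjusted p = 0.0466). Of 14 genes that use isoprenoids, 2 rose with fibrils in KO, Pdss1 of ubiquinone synthesis (0.73 ± 0.20) and Rce1 of prenyl protein processing (0.23 ± 0.08), which is 14.3% of them, against 12.2% of all tested genes called higher. In wild type 4 rose, among them Rabggtb of Rab prenylation (0.37 ± 0.11) and Nus1 of dolichol synthesis (0.39 ± 0.12), and 2 fell, Dhdds of dolichol synthesis (-0.36 ± 0.09) and Fntb of farnesylation (-0.67 ± 0.25), together 42.9%, against 29.3% of all tested genes.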

How the data were processed

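CASAVA 1.7.1, STAR 2.4.2a and mm10 are listed in the submitters' processing notes, without the counting program or its strand setting. Libraries were stranded, depleted of ribosomal RNA and read from one end, per the labels' protocols. The authors deposited raw counts per Ensembl transcript, which were summed here to genes with GENCODE M21 (91320 of 94647 transcripts matched). Reads shared with gene copies or with genes overlapping on the other strand cannot be told apart.

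Genes with low counts were removed with edgeR's filter, and a robust quasi-likelihood model with TMM scaling (factors of 0.827 to 1.14) was fitted over all 6 groups in edgeR 4.0.16 (R 4.3.3; 24 residual degrees of freedom), with SE from the F statistic. P-values were adjusted over all 14346 tested genes (Benjamini-Hochberg), and genes under 0.05 were called. CPM on a log2 scale had a prior count of 2. The 30 genes and all lists were chosen with earlier results of these data known. Values per library are given for up to 4 genes with the smallest p in each direction of a comparison and for Srebf2, Scap, Insig1, Insig2, Fasn and Acly, as means or extremes where groups were large or uncalled. Up to 3 called genes with the smallest p are named per partner list and comparison. Genes named beyond this rule (Scp2, Acaa2, Cpt1a, Elovl5, Fads3 and Fntb) were chosen after their values were seen, and some genes of the pathway are not reported here. Promoters came from RefSeq (GRCm38.p6). Alternatives were RLE scaling, library size alone, no filter, replicate number as a block, a marker covariate, only the compared groups, DESeq2 1.42.0, 7 libraries left out, and each library left out in turn. The fit was tested on simulated counts.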

Additional observations from a re-analysis of the deposited data

Results flagged for a closer look

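In 27 of 180 sets of values (30 genes in 6 groups), the highest or lowest library lay far from the others. About 1 in 20 would do so by chance if values were normally distributed, which CPM on a linear scale need not be. The sets are also not independent, since single libraries were high or low in many genes at once. No excess can therefore be read from the count. The measure is the gap to the nearest library as a share of the group's range. Wild-type LPS replicate 1 was such a highest library for Hmgcs1 (0.795), Pmvk (0.856), Mvd (0.712), Idi1 (0.688), Fdps (0.699), Fdft1 (0.737), Sqle (0.686), Lss (0.731), Cyp51 (0.678), Hsd17b7 (0.801), Sc5d (0.676), Acat2 (0.757), Fads2 (0.691), Fasn (0.802), Elovl6 (0.657) and Acaca (0.625), as in Hmgcs1 with 221 CPM, against 98.6 CPM in the next library. This library also had the highest astrocyte markers of its group, at 4.57 log2 CPM, and their part in these values was not tested. Wild-type control replicate 3 was such a highest library for Pmvk (0.749), Mvd (0.737), Cyp51 (0.712), Msmo1 (0.711), Hsd17b7 (0.826) and Sc5d (0.758), with astrocyte markers at 4.23 log2 CPM, the highest of its group. Wild-type fibril replicate 2 was the highest for Hmgcs1 (0.845), Pmvk (0.888) and Insig1 (0.909). KO fibril replicate 4 was the lowest for Srebf2 (0.733; 32.0 CPM, against 83.6 CPM in the next library), and KO control replicate 6 for Ebp (0.762; 22.3 CPM, against 33.5 CPM).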

How the results depend on the processing

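The counts below are of the 30 genes called. The number of all tested genes called under the same settings is not set beside them. A shift in a count is thus not shown to be particular to these genes. With library size as the only scaling they were 1 with LPS in wild type, 2 with LPS in KO and 1 with fibrils in KO. Without the filter on low counts they were 2 with fibrils in wild type and 1 in KO, and for fibrils against LPS 3 in wild type and 2 in KO. With the marker covariate they were 1 with LPS in KO, 20 with fibrils in wild type and 18 in KO, 21 and 10 for fibrils against LPS in wild type and KO, and 3, 4 and 2 for KO against wild type in controls, with LPS and with fibrils. Under it Fads2 in wild type reversed to 0.255 with fibrils against control (adjusted p = 0.77) and to 0.768 against LPS (adjusted p = 0.234). With only the compared groups they were 10 with fibrils in wild type and 0 in KO, and 10 and 0 against LPS. DESeq2 called 6 with fibrils in KO, 9 against LPS in KO, and 1 each for KO against wild type with LPS and with fibrils. Without the 7 libraries (replicate 5 of KO with fibrils, replicates 1 and 6 of wild type with LPS, and among controls replicates 1, 4 and 6 of KO and replicate 6 of wild type) they were 1 with LPS in wild type, 5 with fibrils in KO, 13 and 14 against LPS in wild type and KO, and 1 for KO against wild type with fibrils. The cause of these shifts was not tested. RLE scaling moved no count by more than 1.5 times.

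Leaving out 1 library at a time gave 2 to 6 calls with fibrils in wild type, 1 to 10 in KO, 3 to 13 against LPS in wild type, 0 to 13 against LPS in KO, and 0 to 1 for KO against wild type with fibrils (1 lower without KO fibril replicate 2). It gave 0 in all other comparisons. Of all tested genes these refits called 2967 to 4560 with fibrils in wild type and 2668 to 3821 in KO. Against LPS they called 4151 to 5607 in wild type and 2990 to 4065 in KO. For KO against wild type with fibrils they called 340 to 1625. The median of the 30 genes ranged over these refits from 0.194 to 0.395 with fibrils in wild type and from 0.352 to 0.741 in KO, but from -0.387 to 0.055 with LPS in wild type, from -0.295 to 0.062 with fibrils in KO against wild type, and from -0.307 to 0.184 for the difference in LPS response, so these last changed sign. Under the marker covariate the median was 1.17 with fibrils in wild type, 1.05 against LPS in wild type, -1.40 with fibrils in KO against wild type and -0.44 for the difference in fibril response. Its sign also turned under that covariate with LPS in KO (0.125) and for the difference in LPS response (0.171), which was 0.362 without the 7 libraries, and with library-size scaling for fibrils in KO against wild type (0.067).

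Deviations of libraries with the same replicate number correlated unevenly (r from -0.551 to 0.646, median 0.039, over 0.1 in 28 of 64 pairs, across 2000 genes). For different numbers the median was -0.016, with a smaller share, 82 of 309, over 0.1. Pairs were pooled over genotypes and treatments, so this cannot decide whether same-numbered libraries belong together. The numbers were not taken as pairs in the main fit. Titles and descriptions of some wild-type controls disagree on the replicate number, and title numbers were used. With replicate number as a block 4 genes were called with fibrils in KO, 10 against LPS in KO and 1 for KO against wild type with fibrils. In wild type with fibrils Insig1 was then not called, while Elovl6 was called lower (-1.33, adjusted p = 0.0269) beside Ggps1, Fads1 and Fads2. The lowest count in a library was 9 for Fads2 and 20 for Elovl6, and at least 53 for the other genes.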
